A study of Mus musculus with 35 samples.

Results

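Interferon-stimulated genes are the transcripts that a cell makes in answer to interferon, and 52 of them, named by symbol, were followed in microglia of 3 brain regions. All 52 had a row among the 21236 genes of the count table, and 48 had a mean of at least 1 CPM (counts scaled to the library size with TMM normalisation between samples). The mice were Tmem119-2A-CreERT2/Ai14(RCL-tdTomato)-D, 17 to 18 weeks old, and each had received tamoxifen at 75 mg/kg for 5 days and was killed 10 to 21 days later, so that every group carried the reporter and the drug and none was a control without them. The Cre was driven from the Tmem119 locus, a gene of microglia, and cells positive for tdTomato were sorted after the tissue had been dissociated. Midbrain (n = 12) and striatum (n = 12) came from 6 male and 6 female mice, and PFC (prefrontal cortex, n = 11) from the same mice save 1 male. Each sample was 1 region of 1 mouse, and the totals ran from 37680501 to 54131421 counts. A count of 3, taken here as the floor, stood for 0.0561 to 0.0789 CPM. The count column taken as the striatum of mouse 3 is headed PFC in the table but labelled striatum; without it 21 of the genes had a region effect, 18 were called between PFC and midbrain and 21 between striatum and midbrain, against 24, 20 and 24 with it.

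Type I interferons bind the receptor IFNAR1/IFNAR2, and the kinases JAK1 and TYK2 then start a phosphorylation cascade. A complex that holds STAT2 and IRF9 then binds a DNA element, the interferon-stimulated response element (ISRE), in front of many of the genes followed here, while interferon gamma acts mainly through another element, the GAS. The products sense foreign nucleic acid, block viral entry, translation or release, tag proteins with the ubiquitin-like ISG15, or attack the vacuoles of intracellular microbes. Microglia carry these receptors, keep a basal level of the pathway in the healthy brain, and include rare cells with a strong interferon signature in ageing and injury. In a sorted bulk sample, more such cells and more RNA per cell cannot be told apart.

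The element itself can be read in the promoters. Promoter windows of 300 bases (250 before to 50 after the start site, RefSeq, GRCm38.p6) existed for 41 of the 52 genes, and the ISRE core (TTTC, 2 bases of any kind and TTTC, searched on both strands with overlapping matches allowed) stood in 23 of the 41 (56.1%), against 1079 of all 27025 genes with a window (3.99%). The GAS core TTCNNNGAA, which reads alike on both strands, stood in 9 of the 41 (22%) and in 9.55% of all genes, and a GAS and an ISRE match overlapped in 2 of the 48 windows of these genes. The 250 bases before the start of Isg15, Ifit3 and Slfn2 are shown because they are 2 interferon-responsive genes with several matches and 1 gene with none that differed between the regions. Capitals mark the ISRE core.
Isg15 (chr4:156200819-156201068, minus strand): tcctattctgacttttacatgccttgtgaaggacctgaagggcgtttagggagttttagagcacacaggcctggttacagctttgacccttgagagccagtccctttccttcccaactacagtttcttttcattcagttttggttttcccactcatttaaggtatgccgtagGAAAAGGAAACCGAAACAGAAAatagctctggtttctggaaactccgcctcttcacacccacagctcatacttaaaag
Ifit3 (chr19:34583279-34583528, plus strand): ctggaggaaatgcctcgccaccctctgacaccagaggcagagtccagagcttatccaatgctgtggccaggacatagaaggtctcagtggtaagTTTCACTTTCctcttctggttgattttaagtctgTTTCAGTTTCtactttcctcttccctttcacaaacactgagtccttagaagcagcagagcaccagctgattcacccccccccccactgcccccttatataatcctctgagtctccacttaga
Slfn2 (chr11:83064862-83065111, plus strand): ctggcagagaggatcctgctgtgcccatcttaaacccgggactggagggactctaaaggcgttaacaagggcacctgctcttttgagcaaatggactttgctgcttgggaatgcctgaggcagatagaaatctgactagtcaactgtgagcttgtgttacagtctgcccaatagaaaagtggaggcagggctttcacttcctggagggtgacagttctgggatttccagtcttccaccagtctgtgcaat
In Isg15 the 3 matches overlapped in 1 run, centred 61 to 73 bases before the start. Shorter stretches around the match nearest to the start are given for 6 other genes of which 5 differed between regions, as described further on (Ifit1, Oas1a, Gbp2, Phf11b and Ifi207), and for Ifit3b, and then for 3 that did not (Stat2, Bst2 and Irgm1).
Ifit1 (chr19:34640792-34640825, plus strand): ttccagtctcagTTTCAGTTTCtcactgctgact
Ifit3b, the same 34 bases as in Ifit3 (chr19:34607791-34607824, plus strand): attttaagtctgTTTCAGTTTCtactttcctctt
Oas1a (chr5:120907526-120907551, minus strand): tctcggGAAATGGAAACTGAAAatct
Gbp2 (chr3:142620592-142620625, plus strand): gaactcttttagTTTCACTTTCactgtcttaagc
Phf11b (chr14:59341359-59341392, minus strand): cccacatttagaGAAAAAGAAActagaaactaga
Ifi207 (chr1:173741829-173741862, minus strand): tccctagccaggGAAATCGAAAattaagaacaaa
Stat2 (chr10:128270264-128270297, plus strand): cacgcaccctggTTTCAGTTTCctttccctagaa
Bst2 (chr8:71537575-71537608, minus strand): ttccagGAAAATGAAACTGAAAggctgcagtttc
Irgm1 (chr11:48871423-48871456, minus strand): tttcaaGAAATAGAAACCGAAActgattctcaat
The core was thus not limited to genes that differed between regions: it stood in 8 of the 19 genes with a region effect that had a window and in 15 of the 22 without one. It likewise stood in 12 of the 22 genes that differed between mice and in 11 of the 19 that did not.

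Of the 52 transcripts, 20 were lower in PFC and 24 in striatum than in midbrain, and 0 were higher in either. A region effect (adjusted p below 0.05 from edgeR's quasi-likelihood test over all genes, Benjamini-Hochberg) was found for 24 of the 52 genes (46.2%), while 8.89% of all 21236 genes had one. Among genes with a mean of at least 1 CPM the share was 23 of 48 against 11.6%. The 52 genes and their role groups were chosen with earlier results of these data known. The choice may itself have raised the counts given here and below above the shares of all genes. Of 62 further interferon-stimulated genes outside the 52, 12.9% had a region effect. A pair of regions was called different where the region effect held, the unadjusted p for the pair was below 0.05 and the fold change was over 1.2. By that rule PFC was lower than midbrain for 20 genes (3.24% of all genes) and higher for 0 (2.75%), and striatum was lower for 24 genes (2.98%) and higher for 0 (3.5%). With an adjusted p for the pair the counts were 17 and 20, Ifit1, Usp18 and Xaf1 being lost in PFC and Irf7, Zbp1, Iigp1 and Samd9l in striatum. The fitted log2 fold change lay below 0 for 50 of the 52 in PFC, with a median of -0.76, and for 51 in striatum, with a median of -0.74, while 47.9% of all genes lay below 0 in PFC and the median of all genes was 0.01. The exceptions were Irf1 and Gbp7 in PFC and Gbp7 in striatum, none of them called. With the mouse in the model in place of sex, 34 of the 52 genes had a region effect (14% of all genes), and the 24 were among them. The 10 added were Irf1, Dhx58, Ifit2, Ifit3, Oas3, Oasl2, Rsad2, Ifitm3, Slfn5 and Lgals3bp, with adjusted p-values of 0.00207, 0.0145, 0.0204, 0.0244, 0.032, 0.00502, 0.00854, 0.0185, 0.022, 0.0157 in that order from edgeR.

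**Figure D1:**
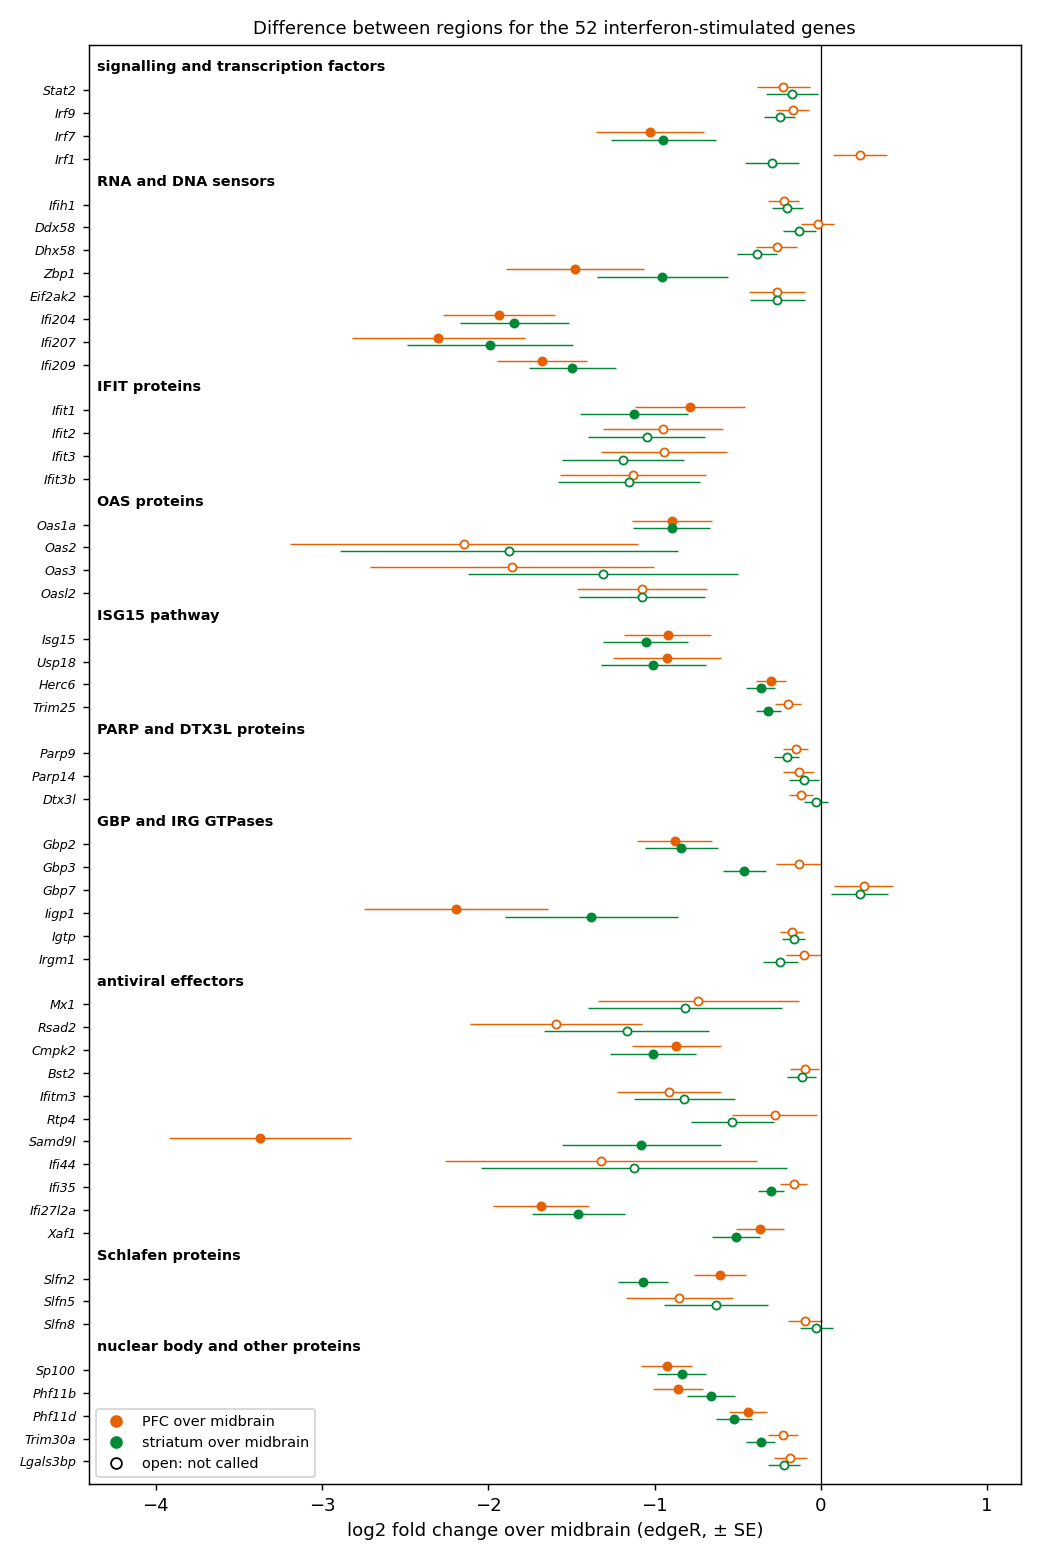
Log2 fold change of PFC (orange) and striatum (green) over midbrain for each of the 52 genes, grouped by role, from edgeR with region and sex in the model (horizontal bars, SE), with filled points for called pairs and open points for the others. Most points lie left of 0, with the Ifi200 genes, Iigp1, Ifi27l2a and Samd9l farthest among the filled ones, and the PARP and DTX3L proteins, Bst2 and Slfn8 near 0.

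Genes with fewer reads had larger fitted differences. The 31 genes with a mean under 20 CPM had a median log2 fold change of -0.94 in PFC and -1.05 in striatum, and the 21 genes at or over 20 CPM had medians of -0.17 and -0.25. The most abundant transcripts per kilobase of exon were Lgals3bp (84.8 CPM per kb), Bst2 (84.1), Irf1 (76.9), Slfn2 (44) and Igtp (40.4), and of these 5 only Slfn2 had a region effect. With the mouse in the model Irf1 and Lgals3bp had one too.

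Within mice the order of the regions was regular. Midbrain was above PFC in all 11 mice with both samples for 16 of the 52 genes, against 1.82% of all genes, and above striatum in all 12 mice for 9 genes, against 1.21%. The 9 were Ifi204, Ifi209, Isg15, Herc6, Gbp2, Ifi27l2a, Slfn2, Sp100 and Trim30a. Across mice the regions overlapped: for 0 of the 52 genes did every midbrain sample lie above every striatum sample (0.155% of all genes) or every PFC sample (0.348%). Without mouse 10, whose forebrain samples stood high, Ifi204 and Ifi27l2a no longer overlapped between midbrain and striatum (2 genes, against 0.184% of all genes), nor did Ifi209, Ifi27l2a and Samd9l between midbrain and PFC (3 genes, against 0.391%). Mouse 10 was singled out for its high values of these same genes, which favours their separation. The shares of all genes are thus no like comparison, and no conclusion is drawn from them.

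Sensors of nucleic acid divided by family. The Ifi200 proteins bind DNA and lie side by side on chromosome 1 (GRCm38, 173630917 to 173766943 for the 3 genes followed), and all 3 were lower in the forebrain. Ifi204, the mouse relative of the DNA sensor IFI16, lay at 5.07 to 26.2 CPM in midbrain (median 11.3), 1.52 to 8.57 in striatum (median 2.66) and 1.01 to 8.33 in PFC (median 2.69). The lowest midbrain sample (mouse 9) was just above all striatum samples except that of mouse 10, a mouse singled out for its high values of these genes. The log2 fold change over midbrain (± SE, as for all differences between regions given here, with the adjusted p of the region effect) was -1.93 ± 0.34 in PFC and -1.84 ± 0.33 in striatum, 3.82-fold and 3.59-fold lower (adjusted p = 2.29e-05). Ifi209 lay at 5.62 to 27.4 CPM in midbrain (median 13.1), 2.02 to 9.01 in striatum (median 4.59) and 0.988 to 11.9 in PFC (median 3.7). Its log2 fold change was -1.68 ± 0.27 in PFC and -1.49 ± 0.26 in striatum (adjusted p = 1.04e-05), and midbrain was the higher region in all 12 mice. Ifi207 was a low transcript, at 1.05 to 9.59 CPM in midbrain (median 3.52), 0.192 to 2.7 in striatum (median 0.806) and 0.0215 to 2.59 in PFC (median 0.511), with log2 fold changes of -2.30 ± 0.52 in PFC and -1.99 ± 0.50 in striatum (adjusted p = 0.00151). Zbp1, a sensor of left-handed nucleic acid that can start necroptosis, lay at 0.7 to 11.9 CPM in midbrain (median 2.15), 0.43 to 4.27 in striatum (median 1.41) and 0.116 to 3.03 in PFC (median 0.833), with its highest value in the midbrain of mouse 5. Its log2 fold change was -1.48 ± 0.42 in PFC and -0.95 ± 0.40 in striatum (adjusted p = 0.0351). The cytosolic RNA sensors did not pass the test: Ifih1 (MDA5) lay at 14.4 to 29.3 CPM in midbrain (median 20.7), 15.4 to 23.5 in striatum (median 17.8) and 14.4 to 21.1 in PFC (median 18.5) (adjusted p = 0.194), and Ddx58 (RIG-I) at 19 to 31.5 CPM in midbrain (median 27.1), 20.7 to 28.8 in striatum (median 22.8) and 16 to 31.7 in PFC (median 25) (adjusted p = 0.682). Dhx58 (LGP2, their relative) lay at 18.4 to 32.3 CPM in midbrain (median 23.5), 12.8 to 24.9 in striatum (median 18.1) and 11.1 to 30.9 in PFC (median 20.2) (adjusted p = 0.0794). With the mouse in the model Dhx58 passed in edgeR's test (adjusted p = 0.0145). Eif2ak2 (PKR, which halts translation) had medians of 8.75, 7.82 and 7.44 CPM in midbrain, striatum and PFC (adjusted p = 0.494). Of the 8 sensors, 4 were lower in PFC (3.24% of all genes) and 4 in striatum (2.98%). Reads of 50 bases cannot always be assigned within the family: 20% of the 50-base runs of Ifi204 and 33.7% of those of Ifi209 also occur in transcripts of other genes (GENCODE M21), mainly Ifi211 and Ifi214, and 7.29% of those of Ifi207.

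Of the 4 signalling and transcription factors 1 had a region effect (8.89% of all genes), and Irf1 had one too with the mouse in the model. Irf7, the factor that amplifies interferon production and is itself strongly induced by it, lay at 8.73 to 58.3 CPM in midbrain (median 16.1), 4.46 to 27.8 in striatum (median 8.21) and 4.06 to 22.1 in PFC (median 7.63). The midbrain of mouse 5 was highest and the forebrain samples of mouse 10 were higher than those of the other mice. The fitted log2 differences were -1.03 ± 0.32 in PFC and -0.95 ± 0.32 in striatum (adjusted p = 0.0386). Stat2 and Irf9, parts of the complex at the ISRE, were present everywhere: Irf9 lay at 60.8 to 116 CPM in midbrain (median 88.7), 64.9 to 88.2 in striatum (median 74.6) and 51.3 to 107 in PFC (median 80.6) (adjusted p = 0.198) and Stat2 at 10.2 to 27.5 CPM in midbrain (median 18.3), 11.5 to 25.6 in striatum (median 16.1) and 9.3 to 26.1 in PFC (median 14.5) (adjusted p = 0.633). Irf1, a factor induced mainly by interferon gamma, lay at 189 to 439 CPM in midbrain (median 319), 106 to 343 in striatum (median 259) and 194 to 528 in PFC (median 372) (adjusted p = 0.0863), with PFC above midbrain in 9 of 11 mice.

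Of the 4 IFIT proteins, which bind viral RNA, and the 4 OAS proteins, which sense it, 1 each had a region effect (8.89% of all genes). With the mouse in the model 3 each had one (Ifit1, Ifit2 and Ifit3, and Oas1a, Oas3 and Oasl2). The 4 IFIT genes sit within 99.3 kb on chromosome 19 (34550694 to 34650009) and all had fitted differences below 0. Ifit1 lay at 1.61 to 11.4 CPM in midbrain (median 4.47), 0.962 to 5.67 in striatum (median 2.07) and 0.581 to 9.64 in PFC (median 2.32) and was called in both regions (-0.79 ± 0.33 in PFC and -1.12 ± 0.32 in striatum, adjusted p = 0.042). The region effect of Ifit1 held in 2 of the 12 fits that each left out 1 mouse. Ifit3 lay at 4.15 to 57.8 CPM in midbrain (median 6.87), 2.79 to 13.1 in striatum (median 4.28) and 2.81 to 17.2 in PFC (median 5.15), and in the midbrain 1 sample, mouse 5, was 57.8 CPM while the next was 14.6 CPM. Its log2 fold change was -0.94 ± 0.38 in PFC and -1.19 ± 0.37 in striatum and its region effect missed the threshold (adjusted p = 0.0553), as did that of Ifit2, which lay at 9.94 to 75.8 CPM in midbrain (median 12.5), 2.65 to 24.2 in striatum (median 7.86) and 4.61 to 26.3 in PFC (median 8.02) (adjusted p = 0.0676), and of Ifit3b (adjusted p = 0.0951). Without the midbrain of mouse 5 the values for Ifit3 were -0.35 in PFC and -0.56 in striatum (adjusted p = 0.3), those for Ifit2 -0.53 and -0.60, and those for Ifit3b -0.46 and -0.47. Ifit3 and Ifit3b shared 51.2% and 45% of their 50-base runs with other genes, almost all with each other, so that their counts could not be separated with certainty. Oas1a, which makes the oligoadenylates that activate RNase L, lay at 5.18 to 24.7 CPM in midbrain (median 10.8), 3.75 to 12.4 in striatum (median 5.26) and 2.56 to 13.9 in PFC (median 5.02), and midbrain was above PFC in 11 of 11 mice. Relative to midbrain it was -0.89 ± 0.24 in PFC and -0.90 ± 0.23 in striatum on the log2 scale (adjusted p = 0.00718), and 57.6% of its 50-base runs also occur in Oas1g. Oasl2 lay at 2.73 to 38.4 CPM in midbrain (median 8.29), 2.21 to 15.5 in striatum (median 4.12) and 2.05 to 16.9 in PFC (median 4.42) and did not pass (adjusted p = 0.0691), and without the midbrain of mouse 5 its fitted values went from -1.08 in both regions to -0.69 in PFC and -0.66 in striatum. Oas2 and Oas3 were near the limit of detection, with 20 and 10 of the 35 samples under 3 counts.

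All 4 genes grouped here under the ISG15 pathway had a region effect, against 8.89% of all genes. The group was drawn up with earlier results known and does not hold the whole pathway. Isg15, the ubiquitin-like modifier, lay at 4.47 to 30.3 CPM in midbrain (median 6.9), 2.76 to 8.35 in striatum (median 4.48) and 2.66 to 8.25 in PFC (median 5.15), and in each of the 12 mice midbrain was above striatum. The log2 fold change was -0.92 ± 0.26 in PFC and -1.05 ± 0.26 in striatum (adjusted p = 0.00613), 1.89-fold and 2.07-fold lower. Without the midbrain of mouse 5, the highest sample, it was -0.58 in PFC and -0.71 in striatum (adjusted p = 0.0326). Usp18, which removes ISG15 from proteins and restrains signalling at IFNAR2, lay at 8.77 to 103 CPM in midbrain (median 22.4), 8.01 to 29.9 in striatum (median 11.7) and 7.02 to 34.3 in PFC (median 12.2) (-0.92 ± 0.32 in PFC and -1.01 ± 0.32 in striatum, adjusted p = 0.0446). The region effect of Usp18 held in 2 of the 12 fits that each left out 1 mouse. Herc6, the main ISG15 ligase of the mouse, lay at 25.4 to 52.3 CPM in midbrain (median 34.4), 22.5 to 32.4 in striatum (median 29.2) and 25.9 to 35.7 in PFC (median 27.5) (-0.30 ± 0.09 in PFC and -0.36 ± 0.09 in striatum, adjusted p = 0.00786), with striatum below midbrain in 12 of 12 mice. Trim25, a ubiquitin ligase that acts on RIG-I, lay at 27.7 to 48.6 CPM in midbrain (median 30.4), 23 to 29.5 in striatum (median 26.6) and 24.4 to 32.8 in PFC (median 28) and was called in striatum and not in PFC (-0.20 ± 0.08 in PFC and -0.32 ± 0.08 in striatum, adjusted p = 0.0145). The difference between striatum and PFC was itself -0.12 on the log2 scale (unadjusted p = 0.131).

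The ADP-ribosylating enzymes showed no region effect. Parp9 lay at 58.7 to 78.1 CPM in midbrain (median 65), 49.3 to 70.3 in striatum (median 56.2) and 44.3 to 78.7 in PFC (median 62.5) (adjusted p = 0.144), and its partner ubiquitin ligase Dtx3l at 40.8 to 63.6 CPM in midbrain (median 49.1), 45.7 to 54.9 in striatum (median 50.7) and 36.2 to 64.2 in PFC (median 46.6) (adjusted p = 0.564). Parp14 had medians of 21.7, 20.4 and 19.5 CPM in midbrain, striatum and PFC (adjusted p = 0.636).

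Guanylate-binding proteins and immunity-related GTPases, which attack the membranes around intracellular microbes, were divided. Gbp2 lay at 8.05 to 36.3 CPM in midbrain (median 13.3), 2.9 to 13 in striatum (median 7.76) and 4.4 to 12.6 in PFC (median 7.24) and was lower in both forebrain regions (-0.88 ± 0.23 in PFC and -0.84 ± 0.22 in striatum, adjusted p = 0.00596), with midbrain the higher in all 12 mice against striatum and all 11 against PFC. Its neighbour Gbp3 was lower in striatum, at 11.1 to 25.4 CPM in midbrain (median 15.1), 8.54 to 17.3 in striatum (median 11.8) and 9.18 to 19.8 in PFC (median 15.4) (-0.13 ± 0.13 in PFC and -0.46 ± 0.13 in striatum, adjusted p = 0.0477). The region effect of Gbp3 held in 3 of the 12 fits that each left out 1 mouse. Gbp7, in the same cluster on chromosome 3 (142530342 to 142638008 for these 3), had fitted values above 0 and lay at 12.7 to 61.8 CPM in midbrain (median 30.6), 27.7 to 52.5 in striatum (median 41.7) and 24 to 59.6 in PFC (median 41.1) (adjusted p = 0.588), and midbrain was the higher region in 2 of 11 and 3 of 12 mice. Iigp1 was rare, at 0.0561 to 3.4 CPM in midbrain (median 1.05), 0.0481 to 1.34 in striatum (median 0.501) and 0 to 0.96 in PFC (median 0.232) (-2.19 ± 0.55 in PFC and -1.38 ± 0.52 in striatum, adjusted p = 0.0135). Igtp and Irgm1, GTPases that guard the cell's own membranes, did not pass: Igtp lay at 77.6 to 125 CPM in midbrain (median 85.1), 66.4 to 91.4 in striatum (median 76.8) and 60.9 to 89.1 in PFC (median 80) (adjusted p = 0.146) and Irgm1 at 57.9 to 141 CPM in midbrain (median 77.1), 60.4 to 78.2 in striatum (median 68.8) and 55.6 to 98.4 in PFC (median 74.1) (adjusted p = 0.3).

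Among the direct antiviral effectors Samd9l had the largest fitted difference of the 52 genes between PFC and midbrain. It is a restriction factor of poxviruses that also limits growth of blood cells, and it lay at 0.584 to 4.33 CPM in midbrain (median 2.4), 0.241 to 3.11 in striatum (median 1.01) and 0 to 1.67 in PFC (median 0.152). In PFC the sample of mouse 10 (1.67 CPM) was above the other 10, of which the highest was 0.251 CPM and 2 were at 0. On the log2 scale the difference was -3.37 ± 0.55 in PFC and -1.08 ± 0.48 in striatum (adjusted p = 0.000147), and the PFC values other than that of mouse 10 amount to a few reads. Ifi27l2a, a small membrane protein of the ISG12 family, lay at 8.15 to 24.4 CPM in midbrain (median 16.9), 3.12 to 21.8 in striatum (median 4.54) and 2.58 to 15.9 in PFC (median 4.67). With all samples the regions overlapped. Leaving out mouse 10, the striatum and PFC samples reached 7.09 and 6.63 CPM, below the lowest midbrain sample (8.15 CPM). Mouse 10 was singled out for its high values of these genes, which favours this gap, and no conclusion is drawn from it. The log2 fold change was -1.68 ± 0.29 in PFC and -1.46 ± 0.28 in striatum (adjusted p = 3.79e-05), 3.21-fold and 2.75-fold lower. Cmpk2, a nucleotide kinase of mitochondria, lay at 2.64 to 20.5 CPM in midbrain (median 6.15), 1.54 to 6.78 in striatum (median 3.37) and 1.89 to 6.84 in PFC (median 3.7) (-0.87 ± 0.27 in PFC and -1.01 ± 0.26 in striatum, adjusted p = 0.0112). Rsad2 (viperin), which lies beside it on chromosome 12 (26442746 to 26479837 for the pair), was higher in midbrain in 11 of 11 mice against PFC but missed the threshold, at 1.53 to 14.6 CPM in midbrain (median 3.33), 0.722 to 7.46 in striatum (median 1.37) and 0 to 3.88 in PFC (median 0.755) (adjusted p = 0.069). Xaf1, a promoter of apoptosis, lay at 15.4 to 42.3 CPM in midbrain (median 19.4), 10.8 to 21.1 in striatum (median 15.2) and 11.3 to 25.2 in PFC (median 15.1) (-0.37 ± 0.15 in PFC and -0.51 ± 0.14 in striatum, adjusted p = 0.0356). Ifi35 lay at 57.1 to 117 CPM in midbrain (median 65.7), 49.9 to 65.6 in striatum (median 57.5) and 52.3 to 72.4 in PFC (median 63.6) and was called in striatum and not in PFC (-0.16 ± 0.08 in PFC and -0.30 ± 0.08 in striatum, adjusted p = 0.0335), the difference between striatum and PFC being -0.14 (unadjusted p = 0.101). Without the midbrain of mouse 5 its values were -0.08 and -0.21. Bst2 (tetherin), which holds budding virus at the cell surface, lay at 63.1 to 121 CPM in midbrain (median 76.7), 63.9 to 88.9 in striatum (median 71.6) and 59.9 to 103 in PFC (median 74.9) (adjusted p = 0.671). Ifitm3, which blocks fusion of virus in endosomes, lay at 15.1 to 94.7 CPM in midbrain (median 26.7), 8.37 to 42.7 in striatum (median 15.4) and 5.79 to 38 in PFC (median 12.9) (adjusted p = 0.0678). Rtp4, Mx1 and Ifi44 did not pass either, and Ifi44 was under 3 counts in 14 samples. With the mouse in the model Rsad2 and Ifitm3 passed in edgeR's test (adjusted p = 0.00854 and 0.0185). Of the 11 effectors, 4 were lower in PFC (3.24% of all genes) and 5 in striatum (2.98%).

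Slfn2 and 4 of the 5 nuclear body and other proteins had a region effect, against 8.89% of all genes. Slfn2, a Schlafen protein needed for quiescence of T cells and monocytes, lay at 67.7 to 131 CPM in midbrain (median 105), 34.4 to 81.6 in striatum (median 46.3) and 38.9 to 119 in PFC (median 61.4), and every mouse had more in midbrain than in striatum. Fitted values were -0.61 ± 0.15 in PFC and -1.07 ± 0.15 in striatum on the log2 scale (adjusted p = 1.64e-05). Its relatives on chromosome 11 did not pass: Slfn8 lay at 21.5 to 39.5 CPM in midbrain (median 26.5), 22.8 to 32.1 in striatum (median 27.2) and 18.4 to 35.7 in PFC (median 24.5) (adjusted p = 0.845), and Slfn5 had medians of 2.91, 1.99 and 1.41 CPM (adjusted p = 0.156). Sp100, a core protein of PML nuclear bodies, lay at 12.7 to 30.7 CPM in midbrain (median 23.1), 7.39 to 21 in striatum (median 12.1) and 6.29 to 17.1 in PFC (median 11.3), with midbrain the higher region in every mouse (-0.93 ± 0.15 in PFC and -0.84 ± 0.15 in striatum, adjusted p = 2.2e-05). Phf11b and Phf11d, neighbours on chromosome 14, were lower in both regions. Phf11b lay at 16.2 to 49.6 CPM in midbrain (median 21.9), 11.7 to 19.9 in striatum (median 14.8) and 8.73 to 20.5 in PFC (median 12.5) (-0.86 ± 0.15 in PFC and -0.66 ± 0.15 in striatum, adjusted p = 0.000147), and 47% of its 50-base runs occur in other genes. Phf11d lay at 24.4 to 55.2 CPM in midbrain (median 29.3), 16.7 to 30.1 in striatum (median 21.6) and 16.3 to 32.4 in PFC (median 24) (-0.44 ± 0.11 in PFC and -0.52 ± 0.11 in striatum, adjusted p = 0.00166). Trim30a, which restrains Toll-like receptor signalling, lay at 54.1 to 107 CPM in midbrain (median 68.3), 45.1 to 65.4 in striatum (median 51.7) and 48 to 69.2 in PFC (median 63.5) and was called in striatum and not in PFC (-0.23 ± 0.09 in PFC and -0.36 ± 0.09 in striatum, adjusted p = 0.0125), the difference between striatum and PFC being -0.13 (unadjusted p = 0.134). Lgals3bp, a secreted glycoprotein, lay at 216 to 333 CPM in midbrain (median 262), 178 to 345 in striatum (median 221) and 182 to 386 in PFC (median 223) (adjusted p = 0.268). With the mouse in the model Slfn5 and Lgals3bp passed in edgeR's test (adjusted p = 0.022 and 0.0157).

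**Figure D2:**
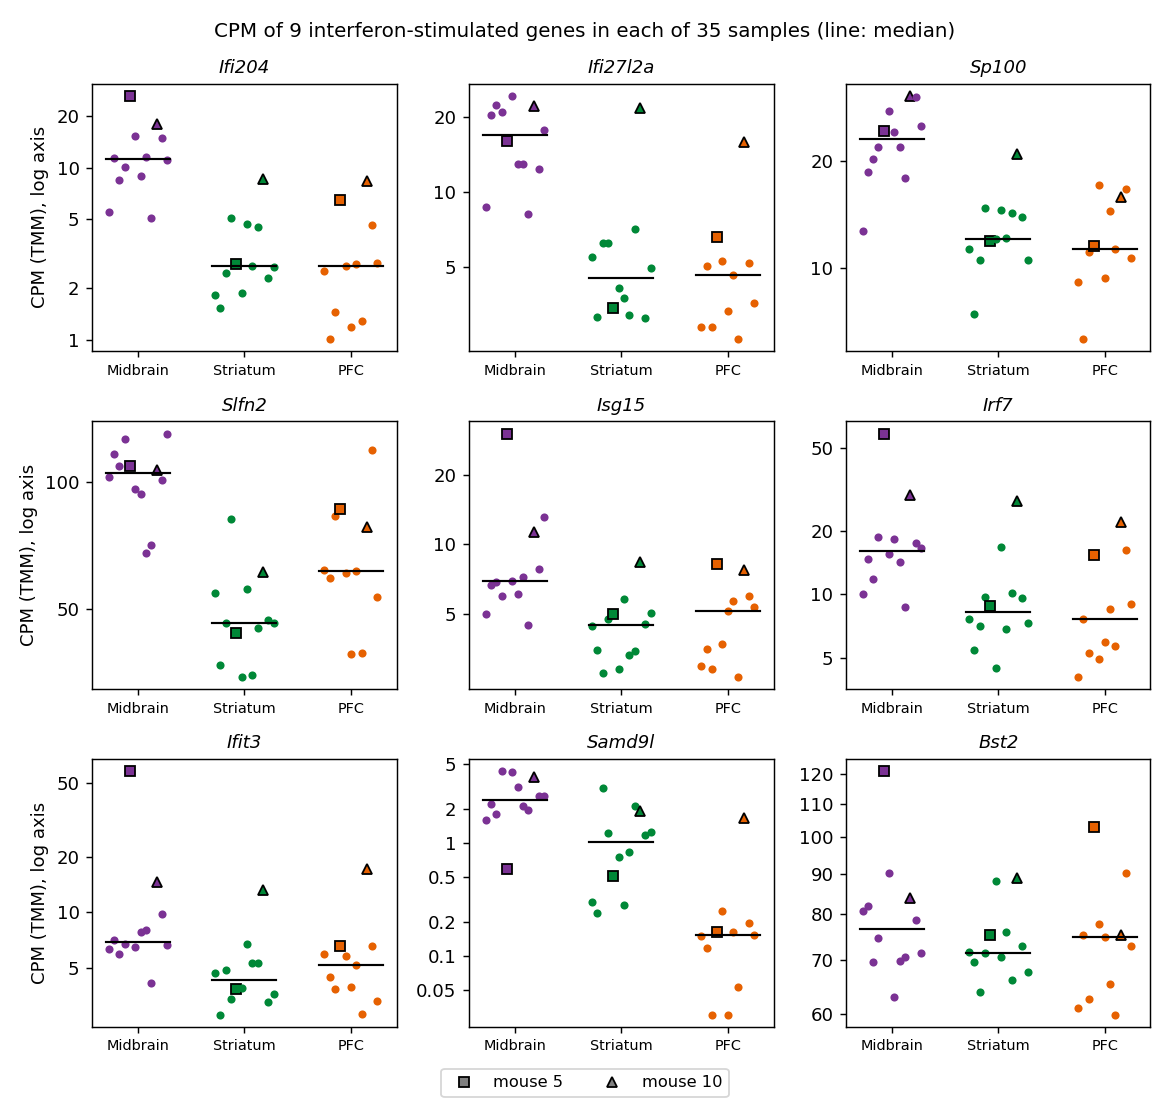
CPM (TMM, log axis) of 9 of the genes in every sample by region, with a square for mouse 5, a triangle for mouse 10, points in the order of mouse numbers and a line at the median. A value of 0 is drawn at 0.03 CPM. Midbrain is the highest region for Ifi204, Ifi27l2a, Sp100 and Slfn2, the forebrain triangle stands above most other points for Ifi27l2a and Ifit3, the midbrain square stands apart for Isg15, Irf7, Ifit3 and Bst2, and Bst2 overlaps between regions.

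Between striatum and PFC few of the genes differed. Striatum was lower for Gbp3 and Slfn2 (2 genes, against 0.833% of all genes) and higher for Samd9l (1 gene, against 2.31%). The log2 fold change of striatum over PFC was -0.46 for Slfn2 (unadjusted p = 0.00468) and 2.29 for Samd9l, which alone passed with an adjusted p (0.0366). With the mouse in the model 5 genes were called, Irf1 and Zbp1 being added.

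The mean over the 52 genes (log2 CPM with a prior count of 2) ran from 3.15 to 4.58 in midbrain, with a mean of 3.82 ± 0.39 (SD, n = 12). It ran from 2.58 to 4.02 in striatum, 3.13 ± 0.37 (SD, n = 12), and from 2.62 to 4.12 in PFC, 3.02 ± 0.46 (SD, n = 11). Within mice, midbrain exceeded PFC in 11 of 11, by 0.19 (mouse 10) to 1.16 (mouse 5), and striatum in 11 of 12, by up to 1.61 (mouse 5). In mouse 9 striatum was the higher of the pair, at 3.40 against 3.15.

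**Figure D3:**
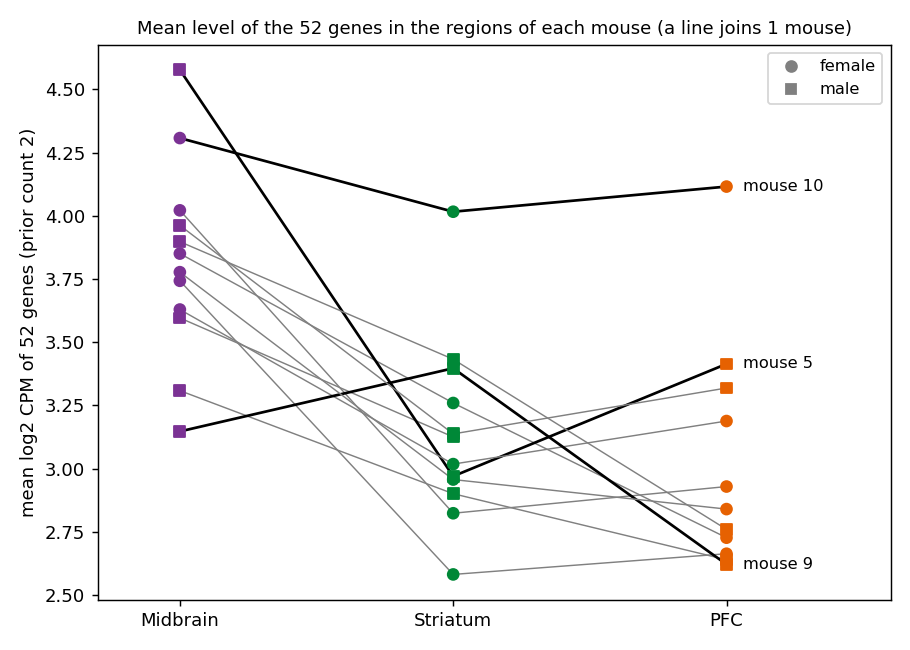
Mean log2 CPM of the 52 genes (y axis, prior count 2) in midbrain, striatum and PFC, 1 line per mouse, circles for females and squares for males. Mouse 10 stays above 4 in all 3 regions, mouse 5 falls from 4.58 in midbrain to 2.97 in striatum, and mouse 9 is the only mouse whose striatum lies above its midbrain.

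In a model of region and mouse, 26 of the 52 genes differed between mice of the same sex (adjusted p below 0.05), against 15.3% of all genes. Among genes with a mean of at least 1 CPM it was 26 of 48, against 25.8%. Region and mouse were called together for 14 genes, which made 58.3% of those with a region effect and 53.8% of those differing between mice, and 16 genes had neither. The median share of the variance of log2 CPM that went with region was 24.8% for the 52 genes and 7.54% for all genes, and that with mouse was 40% and 39.2%. For genes with a mean of at least 1 CPM the medians were 8.6% with region and 45.7% with mouse, the latter above that of the 52 genes.

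The 5 genes with the smallest p for mice were Mx1, Lgals3bp, Isg15, Oasl2 and Irf7. Mx1, a dynamin-like GTPase that blocks influenza virus, differed between mice: 81.1% of its variance went with mouse and 2.69% with region (adjusted p = 0.000487 for mice). Its mean over regions ran from 0.056 CPM in mouse 1 to 3.18 CPM in mouse 5. In mouse 1 it was 0.0467 CPM in midbrain, 0.12 in striatum and 0 in PFC, and in mouse 3 it was 0.107 and 0.0823 CPM, while the other 10 mice reached at least 0.562 CPM in some region. Lgals3bp was highest in mouse 10 (mean of its regions 355 CPM) and lowest in mouse 9 (204 CPM). Isg15 was highest in mouse 5 (14.5 CPM) and lowest in mouse 9 (3.53 CPM), and Oasl2 was highest in mouse 10 (17.5 CPM) and lowest in mouse 9 (3.13 CPM). Irf7 was highest in mouse 5 (27.5 CPM) and lowest in mouse 1 (7.25 CPM).

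Mouse 10 and the midbrain of mouse 5 stood apart. Mouse 10, a female, held the highest value among the striatum samples for 27 of the 52 genes and among the PFC samples for 32, and was above the regional median for 49 in midbrain, 49 in striatum and 48 in PFC. Against the median of the other mice its values were 1.33-fold in midbrain, 1.60-fold in striatum and 1.70-fold in PFC at the median gene. The midbrain of mouse 5, a male, held the highest value for 29 genes and was over 2-fold above the median of the others for 21, but held the lowest value for 5 (Eif2ak2, Parp14, Dtx3l, Gbp7 and Samd9l). In the striatum of the same mouse the median ratio was 0.95 and 0 genes were over 2-fold, while in its PFC the median ratio was 1.21, 10 genes were over 2-fold and 5 held the highest value. Without mouse 10, 9 of the 52 genes differed between mice (12.9% of all genes), and all 9 were among the 26. Without it, 30 genes had a region effect (6.88% of all genes): Ifit2, Ifit3, Ifit3b, Oasl2, Rsad2, Ifitm3 and Lgals3bp were added and Ifi35 was lost (adjusted p = 0.0571). Without the midbrain of mouse 5, 18 genes had a region effect (9.35% of all genes), and Irf7, Zbp1, Ifit1, Usp18, Cmpk2 and Xaf1 were lost. For these 6 the log2 fold change of PFC became -0.74, -1.09, -0.57, -0.51, -0.62, -0.24, and that of striatum -0.64, -0.53, -0.89, -0.58, -0.75, -0.38, in that order. Mouse 10 and the midbrain of mouse 5 were singled out for their values of these genes. The counts without them are therefore not on a like footing with the shares of all genes.

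Over the 12 fits that each left out 1 mouse, 15 of the 24 genes kept their region effect in every one: Ifi204, Ifi207, Ifi209, Oas1a, Isg15, Herc6, Gbp2, Iigp1, Samd9l, Ifi27l2a, Slfn2, Sp100, Phf11b, Phf11d and Trim30a. The others kept it in fewer fits: Ifit1 and Usp18 in 2, Gbp3 in 3, Irf7 in 5, Zbp1 and Ifi35 in 6, Xaf1 in 7, and Trim25 and Cmpk2 in 11. Irf1, Isg15, Mx1 and Sp100 were the 4 of 26 that kept their difference between mice. How many of all genes kept theirs was not counted, so it is not known whether these numbers are unusual.

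**Figure D4:**
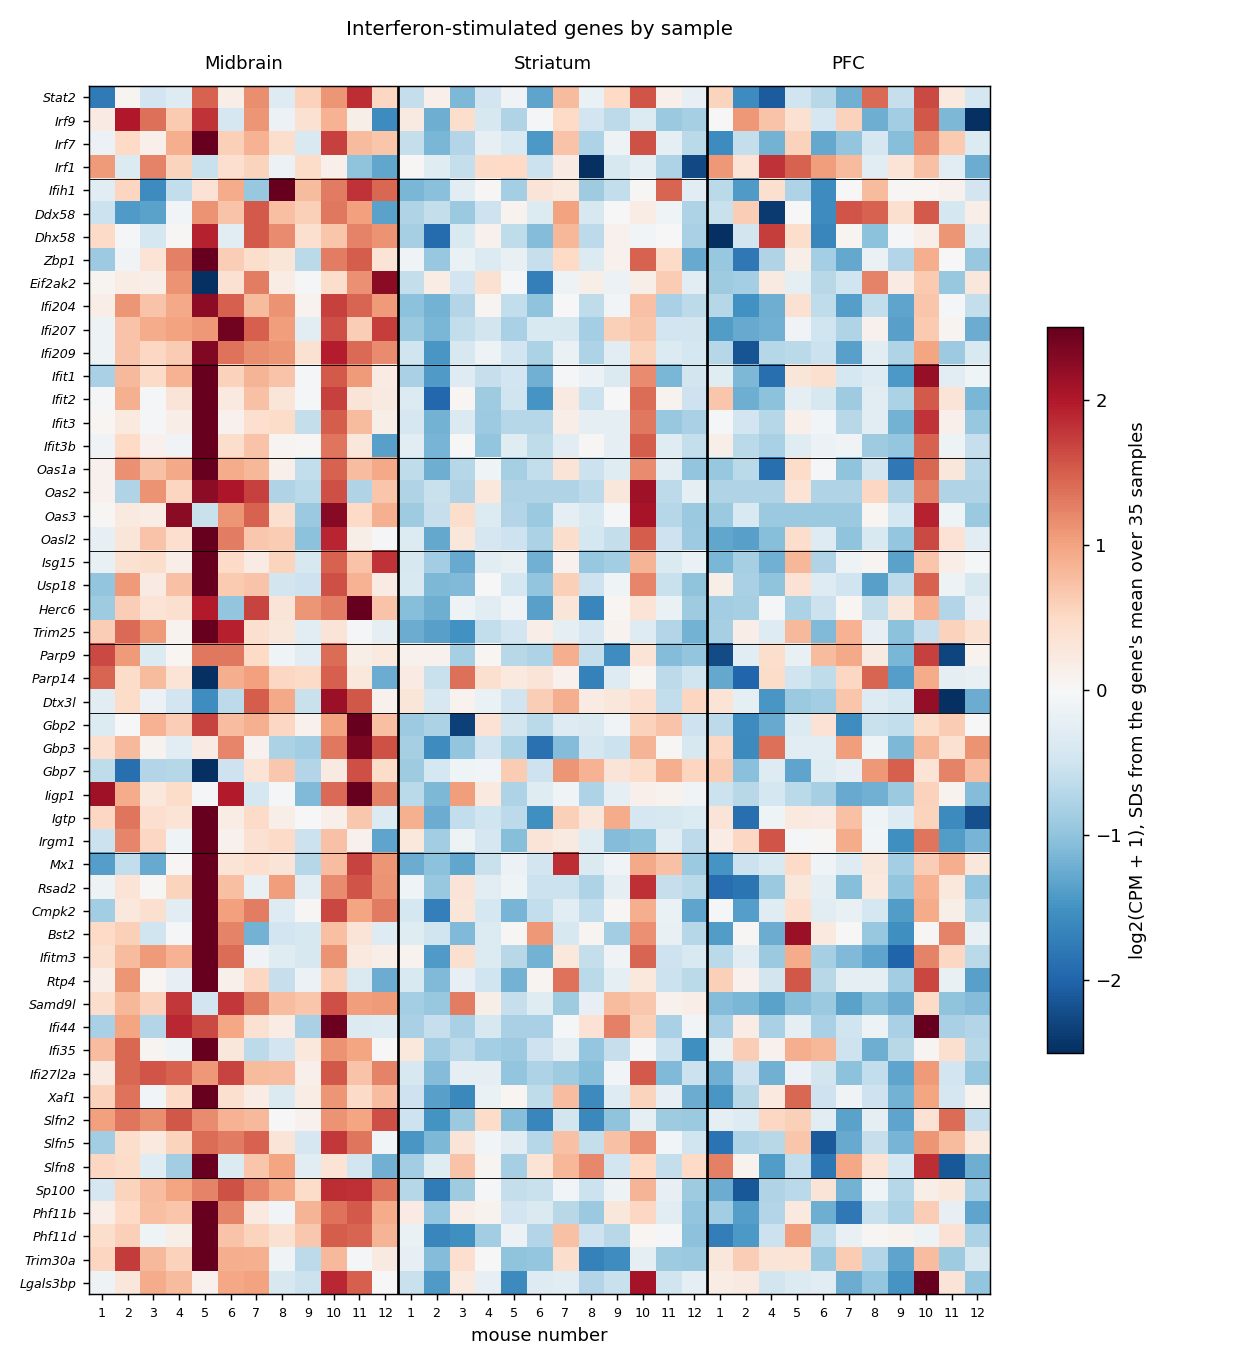
Log2(CPM + 1) of each of the 52 genes (rows, in the order of their roles, separated by thin lines) in the 35 samples (columns, by region and mouse number), coloured by the number of SDs from the gene's mean. The midbrain block is redder than both forebrain blocks, the columns of mouse 10 are red in all 3 blocks, and the midbrain column of mouse 5 is dark red for most but not all genes.

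**Figure D5:**
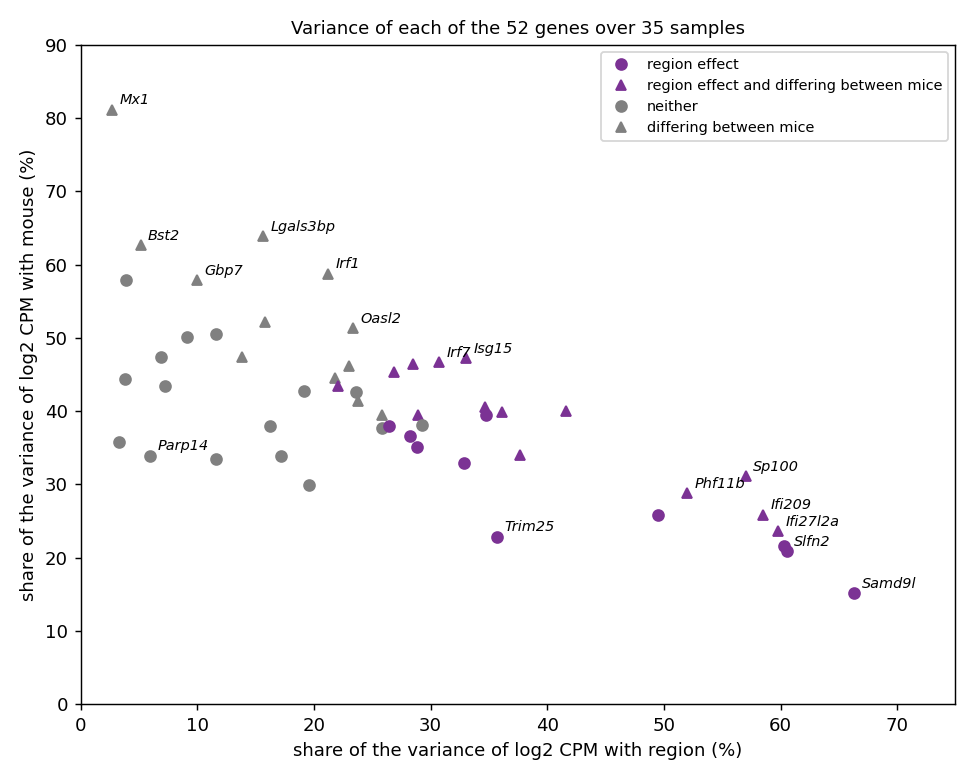
Share of the variance of log2 CPM that went with region (x axis, %) and with mouse (y axis, %) for each of the 52 genes, purple for a region effect and triangles for a difference between mice. Samd9l (66.3% with region) and Mx1 (81.1% with mouse) lie at opposite ends. The shares are not corrected for the number of regions and of mice, so the axes cannot be compared in size.

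With all regions together, 1 of the 52 genes was called between the sexes (unadjusted p below 0.05 and a fold change over 1.2), against 4.13% of all genes. It was Ifi27l2a, higher in females by 0.57 ± 0.23 on the log2 scale (unadjusted p = 0.0172, adjusted p = 0.439). The test takes the up to 3 samples of a mouse as separate, and with the counts summed per mouse 0 genes were called and its value was 0.45. Without mouse 10 this became 0.15 (unadjusted p = 0.359). In midbrain Ifit3b alone was lower in females (-1.21 ± 0.58, unadjusted p = 0.0438; 1 gene, against 4.84% of all genes), and without the midbrain of mouse 5 no gene was called. In striatum 0 genes were called (2.28%). In PFC Parp9 (0.29 ± 0.11, unadjusted p = 0.0118) and Samd9l (1.76 ± 0.81, unadjusted p = 0.0366) were higher in females (2 genes, against 5.29%), and 0 were without mouse 10. A sex by region interaction was found for 0 of the 52 genes and 0% of all genes by edgeR's test at an adjusted p below 0.05, and an unadjusted p below 0.05 was also reached by 0 of the 52. DESeq2 called 0 of the 52 as well. Without mouse 10, 9 genes were called between the sexes, all lower in females (3.88% of all genes), among them Irf7 (-0.45, unadjusted p = 0.0447), Ifit2 (-0.76, unadjusted p = 0.00262), Ifit3b (-0.85, unadjusted p = 0.00953) and Usp18 (-0.49, unadjusted p = 0.0403). With the midbrain of mouse 5, a male, left out too, 2 remained, Ifit2 and Ifit3b. The sums per mouse were not run without these samples. Mouse 10, a female, was singled out for high values of these genes, so leaving it out by itself lowers their female values. The direction of the 9 calls and their number against the share of all genes therefore decide nothing about sex.

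Of 21 interferon genes listed, 2 had a row in the table, Ifnb1 with a mean of 0.579 CPM and Ifnz with 0.0358 CPM, and neither passed. Of 13 genes that induce interferon 1 had a region effect (8.89% of all genes), the kinase Ikbke, at a mean of 0.174 CPM. Of 11 negative regulators 3 had a region effect, against the same 8.89%. Samhd1, which depletes nucleotides, was lower in both forebrain regions (-0.32 ± 0.07 in PFC, -0.42 ± 0.07 in striatum). Ptpn2, a phosphatase that acts on JAK1, was lower in striatum (-0.28 ± 0.08), and Irf2bp2, a corepressor, was higher in both (0.28 ± 0.09 and 0.39 ± 0.09). A further 62 interferon-stimulated genes outside the 52 gave 8 region effects. Of the 62, 7 were lower in PFC (3.24% of all genes) and 6 in striatum (2.98%), and 0 were higher in either (2.75% and 3.5%). The region effects made 12.9% of the 62, against 8.89% of all genes, and 6 of the 41 with a mean of at least 1 CPM (14.6%, against 11.6%). The 8 genes were Mndal, Tgtp2, Ifitm2, Ly6e, Phf11a, Tor3a, Ube2l6 and Ccl12, with Ube2l6, the conjugating enzyme of ISG15, at -0.50 ± 0.11 in PFC and -0.47 ± 0.11 in striatum. Over the 62 the median log2 fold change was -0.21 in PFC and -0.24 in striatum. It lay below 0 for 50 of the 62 in PFC (47.9% of all genes) and for 56 in striatum (48%). This list too was drawn up with earlier results of these data known.

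Microglial markers dominated every sample: Tmem119 ran from 2778 to 3861 CPM, and 10 such markers summed to 39637 to 50935 CPM. Of the 10, 2 were higher in PFC and 4 in striatum than in midbrain. The marker counts given here stand beside these shares of all genes: 2.75% higher and 3.24% lower in PFC, and 3.5% higher and 2.98% lower in striatum. Markers of border macrophages summed to medians of 8.34 CPM in midbrain, 6.39 in striatum and 7.54 in PFC, with 125 CPM in the midbrain of mouse 6, Cd163 and Cd209f at a median of 0, and 1 of 8 was lower in both forebrain regions. Lymphocyte markers summed to 0.136 to 14.6 CPM, with 2 of 7 lower in PFC and 1 in striatum. Those of monocytes and neutrophils summed to 1.1 to 25.1 CPM, with S100a8 and S100a9 at a median of 0, and 1 of 7 was lower and 1 higher in each forebrain region. Astrocyte markers summed to 220 to 285 CPM in midbrain, 279 to 511 in striatum and 272 to 578 in PFC, with 5 of 10 higher in each forebrain region. Neuron markers summed to 4.89 to 9.65, 7.9 to 17.9 and 12 to 33.4 CPM in the same order, with 5 of 12 higher in each forebrain region and 1 lower in striatum. The 15 genes induced by dissociation had 0 region effects, against 11.6% of genes with a mean of at least 1 CPM. Of the 15, 8 differed between mice, against 25.8% of genes at that level. The midbrain of mouse 5 was the lowest midbrain sample for 7 of the 15 and the highest for 1, with Fosb at 49.6 CPM (the others at 163 or more), Atf3 at 1374 (3265 or more) and Hspa1a at 45.9 (174 or more). The part of these cells and genes in the differences above was not tested. Without the midbrain of mouse 6, 22 of the 52 genes had a region effect. In mouse 10 and in mouse 5 the border macrophage markers summed to 4.24 to 10.1 CPM, within the range of the other samples. Endothelial markers reached their highest sum, 92.3 CPM, in the striatum of mouse 10, and 0 of 9 had a region effect (8.89% of all genes). Oligodendrocyte markers summed to 232 to 854 CPM, and 1 of 10 had a region effect.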

How the data were processed

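RNA of sorted microglia from 35 samples was sequenced, and the deposited values are raw counts per gene, made by the authors with FastQC, Trimmomatic and HISAT2 against GRCm38 and kept for genes with at least 1 CPM in a subgroup of sex and region. The counting tool, its annotation, its use of strand and its treatment of multiply mapped reads are not given in the sources used here. Counts were scaled by TMM and tested with the quasi-likelihood test of edgeR 4.0.16 (R 4.3.3) on all 21236 genes, with region and sex in the model, cell means for sex within region, and region and mouse for mice of the same sex. DESeq2 1.42.0 was an alternative. Adjusted p-values are Benjamini-Hochberg. Same-numbered samples came from the same mouse, and pairs of samples of 1 mouse (34 pairs) deviated together from their group means, at an average r of 0.225, while 170 pairs of different mice of 1 sex averaged -0.0431. Mean log2 CPM used a prior count of 2. The edgeR steps were also run on simulated data. The simulated samples were drawn independently, without a mouse effect, so dependence between samples of 1 mouse was not covered. The members, roles and gene lists were chosen with earlier results of these data known. The genes given with values were those with a region effect, the 2 with the highest CPM in each role, the 5 with the smallest p for mice and those called between the sexes; others were named after their values were seen. Promoter motifs were counted with Python 3.11.15. 1 result of the gene lists is not reported here.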

Additional observations from a re-analysis of the deposited data

Results flagged for a closer look

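The mean level (log2 CPM) of all 52 genes and of each of the 10 roles was examined in the 6 groups of 1 sex and region, 66 sets of values in all, and in 4 the highest sample lay far from the rest of its group by Dixon's criterion. Chance alone gives about 1 such set in 20, and 4 of 66 is near that share, so the 4 are given as description only. The sets are not independent, since they share samples and the mean of all genes contains the roles. In female PFC, mouse 10 stood apart for the mean of all 52 genes (4.12, the other females at 2.66 to 3.19), for the signalling and transcription factors (6.11, the others at 5.08 to 5.45) and for the antiviral effectors (3.51, the others at 1.56 to 2.23). In male midbrain, mouse 5 stood apart for the IFIT genes (4.91, the others at 1.80 to 2.64). The cause was not tested.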

How the results depend on the processing

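No call for a pair of regions, or between the sexes with all regions together, changed direction under any alternative run. The direction of the calls between the sexes within a region was not followed. With the mouse as a replicate block, 34 genes had a region effect and 5 differed between striatum and PFC, in place of 24 and 3. In mice 1 to 6 only, 14 genes had a region effect, 13 differed between striatum and midbrain, 6 between the sexes, 4 between the sexes in midbrain, 1 in striatum and 0 between mice. In mice 7 to 12 only, 8 had a region effect, 8 were called for PFC against midbrain, 7 for striatum against midbrain, 1 between striatum and PFC, 4 between the sexes, 2 in midbrain, 7 in PFC and 10 between mice. Each of these sets holds fewer samples. DESeq2 called 2 genes between the sexes in midbrain and 40 between mice. With adjusted p-values 1 gene differed between striatum and PFC, 0 between the sexes, 0 in midbrain and 0 in PFC. Counts summed per mouse gave 0 genes between the sexes, and no minimum fold change gave 3. Over fits without a mouse or a sample, genes with a region effect numbered 17 to 30, those called for PFC against midbrain 14 to 26, for striatum against midbrain 16 to 29, between striatum and PFC 2 to 4, between the sexes 1 to 9, in midbrain 0 to 4, in striatum 0 to 2, in PFC 0 to 4, and between mice 8 to 27. The fits without the midbrain of mouse 5 or of mouse 6, and without mouse 10 together with the midbrain of mouse 5, were chosen after seeing the data. Of 480 values for called genes in PFC against midbrain 76 lost their call under an alternative, of 576 in striatum against midbrain 112, of 72 between striatum and PFC 16, and of 24 between the sexes 5. The causes were not tested. Genes near the floor of 3 counts allow no firm statement.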
